A study of Mus musculus with 230 samples.

Results

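Regulators of G protein signalling (RGS proteins) are represented here by 9 of the 43346 genes in the count tables: Rgs2, Rgs4, Rgs6, Rgs7, Rgs8, Rgs10, Rgs14, Rgs16 and Rgs20. They were taken by name from a list that was chosen with earlier results of these data known. RNA was sequenced from 230 pieces of brain tissue of 45 male C57BL/6J mice, whose age is not given in the sources used here. The regions were prefrontal cortex (PFC), nucleus accumbens (NAc), dorsal striatum (CPu), basolateral amygdala (BLA), ventral hippocampus (vHipp) and ventral tegmental area (VTA). All mice had self-administered cocaine or saline. CC mice (n = 7) had taken cocaine, waited 30 days and received an intraperitoneal cocaine injection 1 h before tissue was collected, and CS mice (n = 6) differed from them in receiving saline. SC mice (n = 8) had taken saline and were injected with cocaine at 30 days, and SS mice (n = 8) had taken saline and were injected with saline at 30 days. C24 mice (n = 8, cocaine) and S24 mice (n = 8, saline) were taken 24 h after the last session with no injection. A group held 3 to 8 libraries in a region, and each mouse gave at most 1 library per region.

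RGS proteins end G protein signals: the RGS domain binds an active G alpha subunit and speeds up its GTP hydrolysis, which shortens the response to receptors such as those for dopamine, opioids, acetylcholine and glutamate. Rgs2, Rgs4, Rgs8 and Rgs16 belong to the R4 subfamily of small proteins with little beside the RGS domain, and of these Rgs2 is known for its preference for Gq. Rgs6 and Rgs7 belong to the R7 subfamily, which acts on Gi and Go and needs the G beta protein Gnb5 for stability. Rgs10 and Rgs14 belong to the R12 subfamily; Rgs14 also carries Ras-binding domains and a GoLoco motif that holds inactive Gi, and in mice it is known for limiting plasticity in hippocampal area CA2. Rgs20 belongs to the RZ subfamily and is known as a regulator of Gz. In rat striatum, Rgs2 and Rgs4 transcripts are known to change within hours of dopamine receptor drugs.

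Library totals ran from 11866570 to 42135683 counts (median 23164567), and every member had at least 7 counts in each of the 230 libraries. Markers of dopamine, striatal and glutamatergic neurons differed between regions as follows. The sum of 4 dopamine neuron genes had a median of 3446 CPM in VTA and 15.3 to 36.3 CPM in the other regions, and the sum of 6 striatal projection neuron genes had a median of 5286 CPM in CPu, 3584 CPM in NAc, 1084 CPM in BLA and 57.1 to 200.7 CPM elsewhere. The sum of 4 glutamatergic forebrain genes had medians of 1880 CPM in PFC, 1527 CPM in vHipp and 837 CPM in BLA, against 10.4 to 12.5 CPM in the other regions. The sum of 2 amygdala genes (Rspo2 and Cdh9) hardly set the BLA apart, with medians of 68.2 CPM in BLA, 64.3 CPM in vHipp, 54.2 CPM in PFC and 10.4 to 32.4 CPM elsewhere. In 39 libraries a tissue marker sum lay more than 4-fold from the median of its region (2 CC, 8 CS, 12 SC, 1 SS, 7 C24 and 9 S24). Another gene, Gm20594, exceeded 1 CPM in 21 libraries (2 CS and 19 SC). Calls that were lost without these libraries are given with their values. A gene is called here where its adjusted p (Benjamini-Hochberg over all genes tested) lay below 0.05. In bulk tissue, fewer cells of a type and less RNA per cell cannot be told apart.

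The striatum held the highest levels of most members. Over all conditions, 6 of the 9 members were called higher in CPu than in the mean of the other 5 regions and 3 were called lower, and the members' median log2 difference was 1.33. Differences between regions were common: 80.3% of all 18927 genes tested were called in CPu, 74.5% in NAc, 71.1% in PFC, 66.6% in BLA, 71.9% in vHipp and 83.6% in VTA. All 9 members were called in each of these comparisons except in BLA, where 7 of 9 were. In NAc 7 members were higher and 2 lower, in PFC 5 and 4, in BLA 5 and 2, and in both vHipp and VTA 3 were higher and 6 lower. The tests used limma voom on all 230 libraries with the mouse as a block. With S24 libraries alone, limma did not call Rgs2, Rgs7 or Rgs20 in BLA. Their log2 differences there were -0.14, -0.08 and 0.11 (adjusted p = 0.167, 0.267 and 0.235). Nor was Rgs16 then called in vHipp (0.16, adjusted p = 0.259). Levels below are CPM, as mean ± SD over 42 CPu, 39 NAc, 41 PFC, 38 BLA, 39 vHipp and 31 VTA libraries.

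Among the R4 genes, Rgs4 (mm10 chr1:169741477-169747642, minus strand) reached 923 CPM in CPu (SD 15.6% of the mean), 384 ± 59.1 in PFC, 317 ± 61.2 in NAc, 285 ± 62.2 in BLA, 181 ± 38.7 in vHipp and 81.0 ± 14.2 in VTA. The CPu mean was 11.4 times that of VTA, and only NAc and BLA, neighbours in this order, differed by less than the larger of their SDs. Per kilobase of exon, Rgs4 was the most abundant member in CPu at 298 CPM per kb, ahead of Rgs2 at 60.3 and Rgs8 at 36.4, while Rgs16 was the least abundant at 1.66. Rgs2 (chr1:143999338-144004161, minus strand) averaged 219 ± 38.9 CPM in CPu, 150 ± 31.4 in NAc, 100 ± 26.8 in BLA, 67.8 ± 14.3 in PFC, 58.9 ± 8.69 in VTA and 38.4 ± 6.93 in vHipp. Its log2 difference from the other regions was 1.56 in CPu, 0.91 in NAc and -1.46 in vHipp, and PFC and VTA did not differ beyond their spread. Rgs8 (chr1:153653025-153700323, plus strand) had 351 ± 36.2 CPM in CPu, 273 ± 30.0 in NAc, 178 ± 20.1 in VTA, 133 ± 53.01 in BLA, 104.6 ± 28.1 in vHipp and 88.4 ± 11.6 in PFC, with no gap beyond the spread from VTA downwards. Rgs16 (chr1:153740349-153745468, plus strand) ran the other way. It had 10.8 ± 1.83 CPM in PFC, 9.88 ± 2.80 in BLA, 8.80 ± 2.63 in NAc, 8.75 ± 5.99 in vHipp, 5.56 ± 1.88 in VTA and 3.89 ± 2.06 in CPu. Its CPu level was 1.18 lower on the log2 scale than the mean of the other regions, although no pair of neighbours in its order differed beyond the spread.

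The promoters of these R4 genes are shown because 3 or 4 of them changed together between 30 days and 24 h. Each is taken from RefSeq (GRCm38.p6) and runs from 250 bases before to 50 bases after the start site, 5′ to 3′ on the gene's strand. Capitals mark TGACG or its reverse complement CGTCA, the core of the cAMP response element to which CREB binds.
Rgs2 (chr1:144004100-144004399, minus strand): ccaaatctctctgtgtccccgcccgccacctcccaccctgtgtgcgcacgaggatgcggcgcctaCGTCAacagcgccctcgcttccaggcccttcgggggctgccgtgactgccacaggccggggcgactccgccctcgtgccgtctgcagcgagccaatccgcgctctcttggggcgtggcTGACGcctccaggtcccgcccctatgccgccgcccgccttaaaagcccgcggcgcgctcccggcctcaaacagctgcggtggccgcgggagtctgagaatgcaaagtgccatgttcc
Rgs4 (chr1:169747593-169747892, minus strand): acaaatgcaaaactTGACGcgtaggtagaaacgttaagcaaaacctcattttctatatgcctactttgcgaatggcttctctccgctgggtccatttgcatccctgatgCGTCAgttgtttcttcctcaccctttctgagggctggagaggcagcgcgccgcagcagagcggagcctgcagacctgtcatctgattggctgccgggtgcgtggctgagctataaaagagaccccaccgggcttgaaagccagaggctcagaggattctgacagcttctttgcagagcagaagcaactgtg
Rgs8 (chr1:153652787-153653086, plus strand): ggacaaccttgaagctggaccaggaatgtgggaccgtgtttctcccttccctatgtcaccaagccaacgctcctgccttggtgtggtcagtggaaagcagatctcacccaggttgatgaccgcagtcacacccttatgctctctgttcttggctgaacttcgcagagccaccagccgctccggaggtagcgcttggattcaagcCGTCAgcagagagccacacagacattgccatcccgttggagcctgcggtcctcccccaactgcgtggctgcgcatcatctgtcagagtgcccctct
Rgs16 (chr1:153740103-153740402, plus strand): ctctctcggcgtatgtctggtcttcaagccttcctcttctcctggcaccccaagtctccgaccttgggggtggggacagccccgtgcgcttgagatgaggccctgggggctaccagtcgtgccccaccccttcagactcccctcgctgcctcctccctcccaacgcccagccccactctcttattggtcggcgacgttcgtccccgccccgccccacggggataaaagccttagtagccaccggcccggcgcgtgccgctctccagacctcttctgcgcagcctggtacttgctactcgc
The core occurs at 2 places in Rgs2, the nearer beginning at -67 from the start site, at -236 and -141 in Rgs4 and at -46 in Rgs8, and its letters are not in the Rgs16 window. It was found on either strand in 20.8% of the 32851 promoters of this length. The full element TGACGTCA (1.79% of promoters) and the Egr site GCGGGGGCG (2.91%) were in none of the members' windows. A TATAAA box (13.6% of promoters) stood at -31 in Rgs4 only. In all, 7 of the 9 members had a promoter available, Rgs8 with 3 alternative starts of which the first is printed. The later Rgs8 windows held no TGACG on either strand, and neither did the windows of Rgs6, Rgs7 and Rgs10. These matches describe letters, and binding was not measured.

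The R7 genes among the members, Rgs6 and Rgs7, were not highest in the striatum. Rgs6 (chr12:82588292-83162056, plus strand) had 88.0 ± 10.01 CPM in VTA, above every library of the next region, PFC, at 48.9 ± 6.28 CPM. It had 24.4 ± 5.29 in BLA, 21.9 ± 1.79 in CPu, 19.1 ± 2.21 in NAc and 10.2 ± 5.32 in vHipp. Its log2 difference from the other regions was 2.04 in VTA, 1.01 in PFC and -1.89 in vHipp. Rgs7 (chr1:175059087-175492500, minus strand) was the most even member: 80.8 ± 8.45 CPM in PFC, 70.1 ± 8.66 in vHipp, 67.3 ± 6.68 in BLA, 58.6 ± 3.22 in CPu, 55.6 ± 3.30 in VTA and 52.4 ± 5.13 in NAc, a span of 1.54-fold. The neighbours vHipp and BLA, CPu and VTA, and VTA and NAc did not differ beyond their spread.

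Of the R12 genes, Rgs14 (chr13:55369732-55384687, plus strand) had the widest span of the members. It averaged 134 ± 25.1 CPM in NAc, 124 ± 12.9 in CPu, 74.2 ± 17.9 in BLA, 64.4 ± 15.1 in vHipp and 55.5 ± 6.56 in PFC. In VTA it had a median of 1.11 CPM (0.310 to 15.2), so that every PFC library lay above every VTA library, and the log2 difference of VTA from the other regions was -6.16 ± 0.148 (SE). NAc and CPu, BLA and vHipp, and vHipp and PFC did not differ beyond their spread. Rgs10 (chr7:128373621-128418758, minus strand), a small protein with little beside the RGS domain, had 46.6 ± 4.77 CPM in CPu, 42.9 ± 7.92 in NAc, 36.01 ± 5.05 in VTA, 29.4 ± 9.45 in BLA, 18.4 ± 3.27 in vHipp and 15.5 ± 2.43 in PFC, and of its neighbours only BLA and vHipp differed beyond their spread. The RZ gene Rgs20 (chr1:4909576-5070285, minus strand) had 86.4 ± 15.6 CPM in CPu, 51.0 ± 8.61 in NAc, 33.0 ± 7.25 in BLA, 25.5 ± 3.59 in PFC, 14.2 ± 2.96 in vHipp and 12.8 ± 2.27 in VTA. It was 1.86 higher in CPu and 1.43 lower in VTA on the log2 scale than in the other regions, and vHipp and VTA did not differ beyond their spread.

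**Figure D1:**
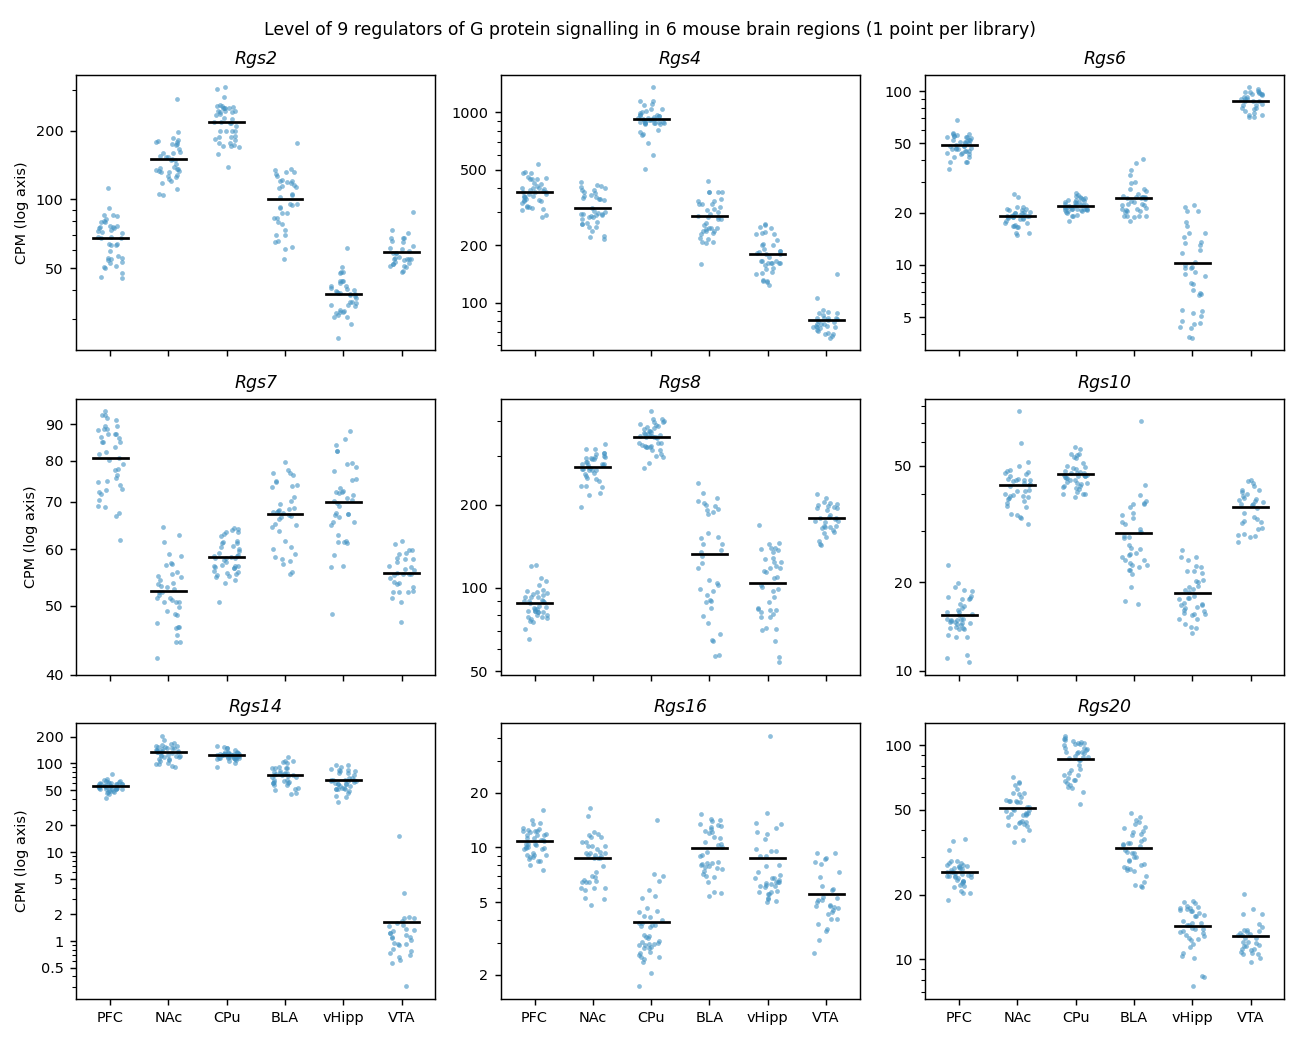
CPM (log axis) of the 9 members in the 6 regions, 1 point per library with a line at the mean over libraries. Rgs2, Rgs4, Rgs8, Rgs10 and Rgs20 are highest in CPu, Rgs6 in VTA, Rgs7 and Rgs16 in PFC, and Rgs14 in NAc, by their means, though Rgs10 and Rgs14 do not differ between NAc and CPu beyond the spread and Rgs16 between no neighbours. Rgs14 is lowest in VTA with a median of 1.11 CPM.

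The 3 of 13559 genes whose log2 CPM was most like that of each member over the 230 libraries, which share regions and mice, are given as a description. With Spearman's correlation, 11 of the 27 genes were again among the 3 nearest, and none of those of Rgs10 and Rgs14 were (0 of 3 each). For Rgs20 they included Arpp19 (Pearson's r = 0.964) and the D1 dopamine receptor gene Drd1 (0.960). For Rgs2 they were the serotonin receptor gene Htr1b (0.966), Cacng4 (0.952) and the striatal phosphatase gene Ptpn5 (0.949). For Rgs4 they were Camkk2 (0.956), Spry2 (0.937) and Prkcb (0.933), and for Rgs8 they were Pptc7 (0.946), the G alpha chaperone gene Ric8b (0.929) and Stk32a (0.916). Rgs14 was closest to Camkv (0.979), Ccsap (0.978) and Rin1 (0.977), and Rgs10 to Klhl13 (0.918), Inpp5f (0.918) and Slc32a1 (0.916), the vesicular GABA transporter. Rgs6 was closest to Chml (0.876), Plcb4 (0.857) and Aldh1a7 (0.853), and Rgs7 to Vamp2 (0.875), Gtdc1 (0.874) and Atrnl1 (0.873). Rgs16 had the weakest likeness, to Glt8d2 (0.760), Trp53i11 (0.751) and Csgalnact1 (0.749). Among the members themselves, Rgs20 and Rgs2 were most alike (r = 0.934), and the pair kept r = 0.630 once each region and condition mean was taken out.

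Cocaine was compared with saline first at 24 h, where it was self-administered and nothing was injected. For C24 against S24, 0 of 9 members were called over the 6 regions by limma voom, where 0.845% of all genes were, and 0 of 54 member and region pairs were called by edgeR, where 0.000983% of all tests were. The members' log2 differences over 6 regions ran from -0.12 to 0.08, and the smallest adjusted p was 0.643 (Rgs4). No member, over the 6 regions or in a region, had an unadjusted p under 0.05.

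After 30 days, past cocaine was compared under a saline injection. For CS against SS, 0 of 9 members were called over 6 regions (0.0581% of all genes) and 0 of 54 pairs in single regions (0% of all tests), with 1 of 9 and 4 of 54 at an unadjusted p under 0.05. The pair with the smallest adjusted p was Rgs4 in vHipp. It had 166 to 258 CPM (median 202) in 6 CS libraries, against 124 to 161.7 CPM (median 148) in 6 SS libraries. The groups did not overlap, yet the difference of 0.51 ± 0.154 (log2, SE) had an adjusted p of 0.246 by edgeR. The sum of 3 dentate gyrus markers in the same tissue had medians of 77.8 CPM in CS (26.6 to 310) and 259 CPM in SS (162.2 to 405), and Rgs4 fell with that sum within groups (r = -0.791 over 39 vHipp libraries). Its part in the difference was not tested.

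An acute cocaine injection was compared in mice that had taken saline. For SC against SS, 0 of 9 members were called over 6 regions (0.111% of all genes) and 0 of 54 pairs in single regions (0.00393% of all tests), with 0 of 9 and 5 of 54 at an unadjusted p under 0.05. Rgs14 in VTA had the largest difference, 1.84 ± 0.629 on the log2 scale (adjusted p = 0.903). The 5 SC libraries had 15.2, 1.22, 1.11, 0.734 and 0.615 CPM, against 0.781 to 1.30 CPM (median 1.06) in 6 SS libraries. One SC library (mouse-113) stood above all others and the other 4 spread around the SS values; in that library the sums of striatal and hypothalamic markers were 3.47 and 16.9 times the VTA medians. Rgs10 in vHipp had the smallest adjusted p, 0.504, with 14.1 to 22.6 CPM (median 16.8) in SC against 15.6 to 25.8 CPM (median 22.3) in SS, and the groups overlapped.

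For CC against SS, 0 of 9 members were called over 6 regions (0.0317% of all genes) and 0 of 54 pairs (0% of all tests), with none at an unadjusted p under 0.05 in either. For CC against CS, which sets cocaine beside saline in mice with a cocaine history, 0 of 9 members (0% of all genes) and 0 of 54 pairs (0% of all tests) were called, with 0 of 9 and 3 of 54 at an unadjusted p under 0.05. The interaction, which asks whether the response to the injection differed with history, called 0 of 9 (0.0423% of all genes) and 0 of 54 (0.000983% of all tests), with 0 of 9 and 5 of 54 at an unadjusted p under 0.05. DESeq2 in single regions also called 0 of 54 pairs in each of these comparisons and in the interaction. Rgs2 in PFC, called in none, differed by 0.28 in CS against SS, -0.25 in CC against CS and -0.41 in the interaction. The unadjusted p was 0.00404, 0.00759 and 0.00192 (edgeR). The standard errors set what could have been seen: over 6 regions they were near 0.05 for Rgs2, near 0.03 for Rgs7 and near 0.10 for Rgs16 on the log2 scale.

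**Figure D2:**
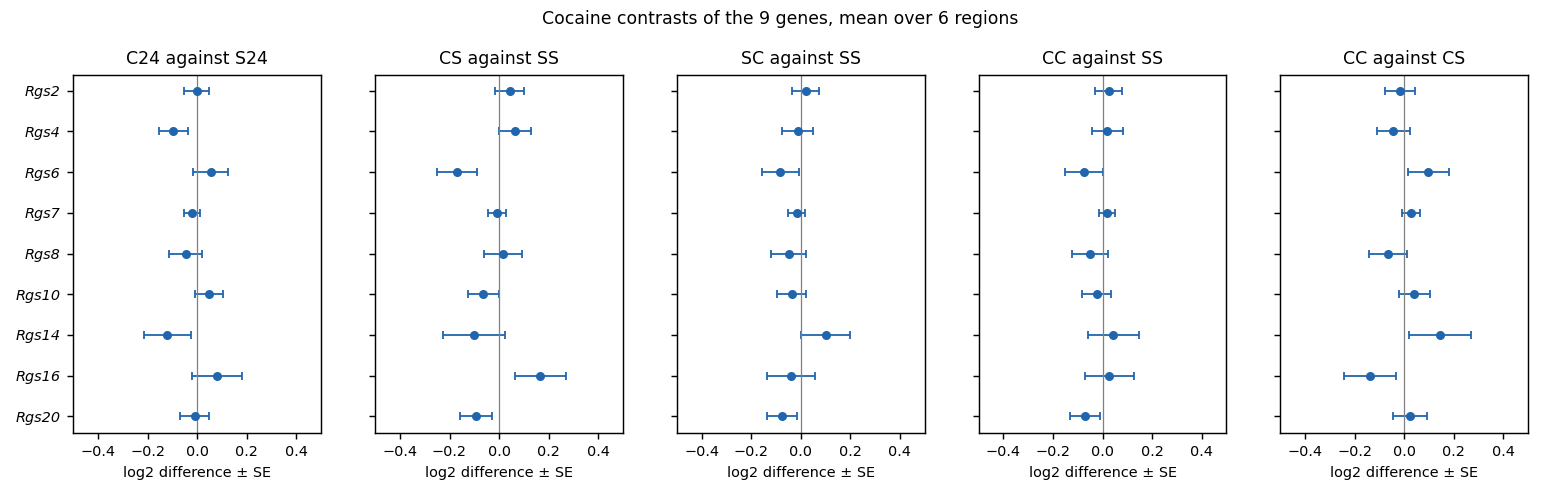
Log2 difference ± SE of each member as a mean over 6 regions, for the 5 comparisons of cocaine with saline. All 45 values lie between -0.17 and 0.17 and none was called.

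Some of the members differed between 30 days and 24 h, and with 9 genes nothing particular to them is read from the counts. In SS against S24, where cocaine was never given, 5 of 9 members were called over the 6 regions, all higher in SS, against 31.6% of all genes; the members' median log2 difference was 0.20 and that of all genes was -0.01. In CS against C24, 5 of 9 were called, all higher in CS, against 36.4% of all genes, with medians of 0.16 and -0.01. SS and CS mice had been injected and had waited 30 days, and S24 and C24 mice had not, so injection and withdrawal time cannot be told apart. These means give BLA the same weight as each other region, and striatal markers in BLA were higher at 30 days (values below). In SS against S24, the BLA differences of the 5 members called were smaller with those markers as a covariate. The part of BLA tissue in the means over 6 regions was not tested. Called in both were Rgs2, Rgs16, Rgs8 and Rgs20. Rgs10 was called in SS against S24 alone and Rgs4 in CS against C24 alone, but the test of the difference between these effects called 0 of 9 members (0.0528% of all genes), with an adjusted p of 0.766 for Rgs10 and 0.653 for Rgs4. Its smallest adjusted p was 0.596 (Rgs6), and 1 of 9 members had an unadjusted p under 0.05. Rgs6, Rgs7 and Rgs14 were called in neither. Their differences were 0.06, -0.05 and -0.06 in SS against S24 and -0.17, -0.03 and -0.04 in CS against C24.

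In single regions, 9 of 54 member and region pairs were called in SS against S24 and 10 of 54 in CS against C24 by edgeR, all higher at 30 days, with 18 and 19 at an unadjusted p under 0.05. The share of all genes called in SS against S24 was 14.3% in PFC (2 of 9 members), 16.9% in CPu (3 of 9), 16.7% in BLA (4 of 9), 3.79% in NAc, 2.72% in vHipp and 2.51% in VTA (0 of 9 in each of these 3). In CS against C24 it was 11.3% in PFC (2 of 9 members), 8.83% in NAc (2 of 9), 22.7% in CPu (4 of 9), 9.72% in BLA (2 of 9), 4.59% in vHipp (0 of 9) and 3.99% in VTA (0 of 9). The test of the difference between both comparisons called 0 of 54 pairs (0% of all tests), with 5 at an unadjusted p under 0.05. The sum of 5 blood genes was lower at 30 days: in PFC its median was 46.4 CPM in SS and 103 CPM in S24, and 54.2 CPM in CS and 157 CPM in C24. Its part in the members' differences was not tested.

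**Figure D3:**
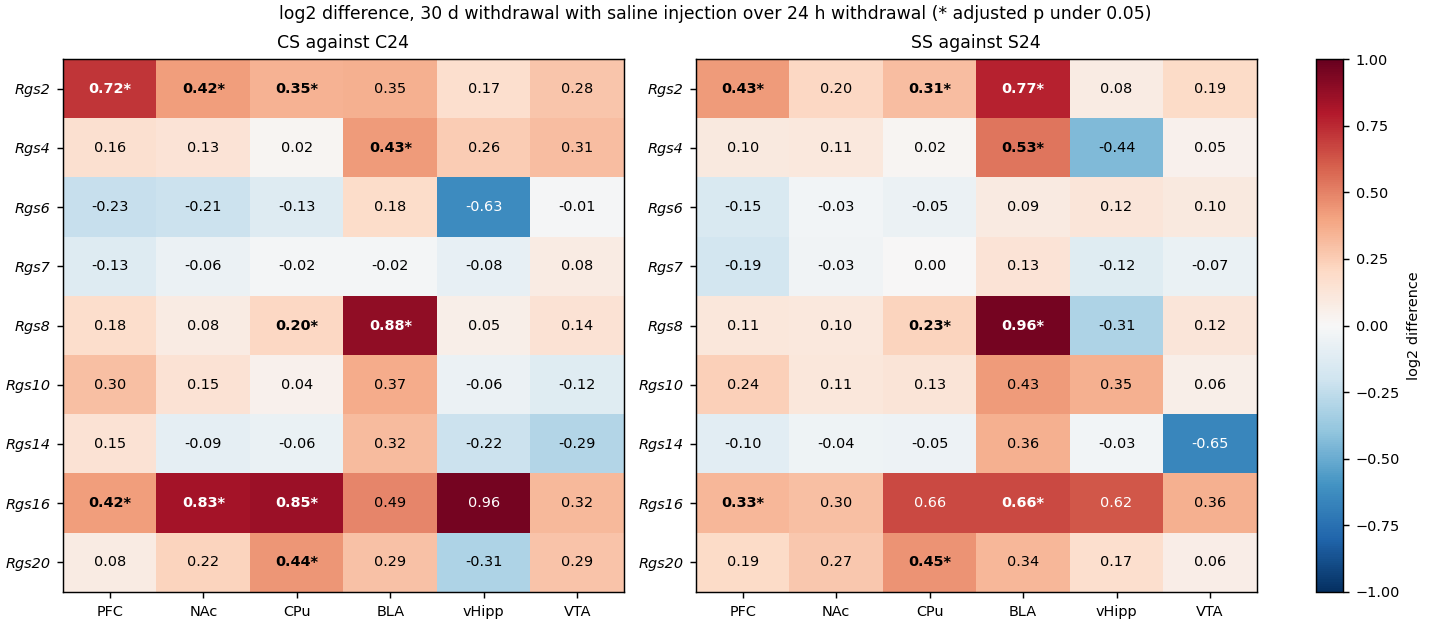
Log2 difference of each member in each region, CS against C24 on the left and SS against S24 on the right, with an asterisk where edgeR called the pair. The 19 called pairs are all positive and lie in PFC, NAc, CPu and BLA.

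Rgs2 rose in both comparisons in PFC and CPu, in SS against S24 in BLA and in CS against C24 in NAc. In PFC it had 112, 91.2, 85.3, 72.1 and 67.4 CPM in the 5 CS libraries, against 45.1 to 59.5 CPM (median 53.7) in 8 C24 libraries. In the saline pair it had 63.8 to 75.4 CPM (median 73.7) in 7 SS libraries, against 47.8 to 62.9 CPM (median 52.4) in 7 S24 libraries. In neither pair did the groups overlap, and the log2 differences were 0.72 ± 0.0877 (SE; adjusted p = 2.42e-07, edgeR) for CS against C24 and 0.43 ± 0.0836 (adjusted p = 0.000516) for SS against S24. Without the CS library of mouse-091, which also had 6.41 times the region's median of striatal markers, the CS difference was 0.60 (adjusted p = 1.67e-06).

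In BLA, Rgs2 had 79.3 to 135 CPM (median 126) in 7 SS libraries, against 60.5 to 82.5 CPM (median 69.6) in 7 S24 libraries. All but 1 SS library lay above every S24 library, with a log2 difference of 0.77 ± 0.136 (adjusted p = 0.000262). In CS against C24 the BLA difference was 0.35 ± 0.153 and was not called (adjusted p = 0.136). In CPu it had 199 to 303 CPM (median 243) in SS, against 138 to 310 CPM (median 182.2) in S24, and 187 to 255 CPM (median 233) in CS, against 158 to 200 CPM (median 179) in C24. The CPu groups overlapped in both pairs, and the differences were 0.31 ± 0.0984 (adjusted p = 0.0259, edgeR) and 0.35 ± 0.102 (adjusted p = 0.0112). Without the libraries that stood apart in tissue markers, the differences were 0.32 (adjusted p = 0.0532) and 0.35 (adjusted p = 0.0555), close in size and from fewer libraries. In NAc, 5 CS libraries had 275, 182.2, 160, 135 and 127 CPM, against a median of 121.6 CPM and at most 178 CPM in 8 C24 libraries. That difference of 0.42 ± 0.135 (adjusted p = 0.0439) rested on mouse-014: without it, it was 0.21 (adjusted p = 0.303), and without mouse-055 or mouse-151 the adjusted p was 0.0721 or 0.0545. In SS against S24 the NAc difference was 0.20 ± 0.129 and was not called (adjusted p = 0.457). In VTA the 3 CS libraries (67.5, 64.7 and 62.6 CPM) lay above all 6 C24 libraries (48.3 to 56.0 CPM), but the adjusted p was 0.222.

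Over the 6 regions, Rgs2 was higher by 0.33 ± 0.0532 in SS than in S24 (adjusted p = 4.97e-08, limma) and by 0.38 ± 0.0575 in CS than in C24 (adjusted p = 6.94e-09). Within groups, Rgs2 followed the summed level of 25 activity-induced genes in NAc (r = 0.772, 39 libraries) and CPu (r = 0.754, 42 libraries), but not in PFC (r = -0.394, 41 libraries) or BLA (r = -0.092, 38 libraries); libraries of 1 region share its dissection and depth range.

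Rgs16 rose in both comparisons in PFC, in CS against C24 in NAc and CPu and in SS against S24 in BLA. In NAc it had 16.5, 14.9, 9.49, 8.70 and 6.50 CPM in 5 CS libraries, against 5.19 to 7.87 CPM (median 6.01) in 8 C24 libraries. All but 1 CS library lay above the C24 range, and the log2 difference was 0.83 ± 0.179 (adjusted p = 0.00216, edgeR). In SS against S24 it was 0.30 ± 0.171 and was not called (adjusted p = 0.389). In BLA it had 7.79 to 15.3 CPM (median 11.3) in SS, against 5.44 to 8.05 CPM (median 7.13) in S24, a difference of 0.66 ± 0.166 (adjusted p = 0.00643) with the groups overlapping by their ends. In CS against C24 the BLA difference was 0.49 ± 0.186 and was not called (adjusted p = 0.0875).

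In PFC, Rgs16 had 16.1, 12.2, 11.8, 10.96 and 9.92 CPM in CS, against 7.53 to 10.4 CPM (median 9.26) in C24, and 8.90 to 14.1 CPM (median 11.3) in SS, against 8.46 to 11.7 CPM (median 8.81) in S24. The groups overlapped, with differences of 0.42 ± 0.106 (adjusted p = 0.00714) and 0.33 ± 0.10 (adjusted p = 0.0228). Without the CS library of mouse-151 the first was 0.30 (adjusted p = 0.0725). In CPu it had 2.49 to 14.2 CPM (median 4.25) in 6 CS libraries, against 1.73 to 4.44 CPM (median 3.01) in C24, a difference of 0.85 ± 0.281 (adjusted p = 0.024). The highest of these, mouse-151, had 18.7 times the CPu median of glutamatergic forebrain markers, and without the libraries that stood apart in tissue markers the difference was 0.47 (adjusted p = 0.306). In SS against S24 the CPu difference was 0.66 ± 0.278 and was not called (adjusted p = 0.0962). In vHipp, 6 CS libraries had 6.15 to 41.2 CPM (median 9.70), against 5.27 to 13.6 CPM (median 6.24) in C24, and the difference of 0.96 was not called (adjusted p = 0.0767). Over the 6 regions, Rgs16 was higher by 0.47 ± 0.10 in SS than in S24 (adjusted p = 4.51e-05, limma) and by 0.56 ± 0.104 in CS than in C24 (adjusted p = 2.43e-06). At these low levels, 10.1% of the exon bases of Rgs16 overlap the antisense gene Gm28513, and the strand setting of the counting is not given in the sources used here, so reads of the pair cannot be told apart.

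**Figure D4:**
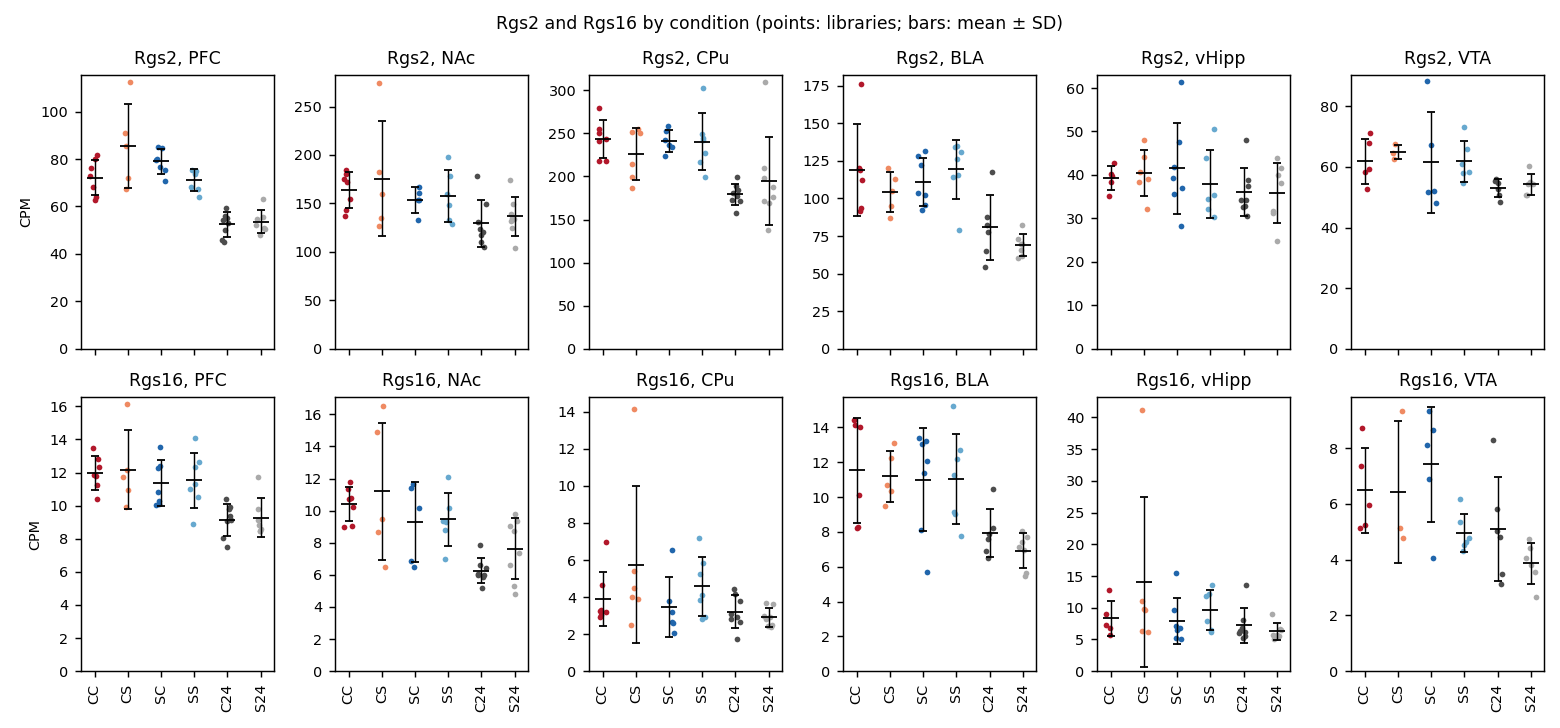
CPM of Rgs2 and Rgs16 in each region by condition, 1 point per library with the group mean and SD. Rgs2 in PFC lies at 63.8 to 112 CPM in the CS and SS libraries, above all C24 and S24 libraries, and the highest Rgs16 value is the vHipp CS library at 41.2 CPM.

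Rgs20, the Gz regulator, rose in CPu. It had 88.0 to 111.1 CPM (median 97.4) in 7 SS libraries, against 60.7 to 93.4 CPM (median 72.6) in 8 S24 libraries, and 70.4 to 104 CPM (median 94.96) in 6 CS libraries, against 53.3 to 85.6 CPM (median 67.7) in C24. The groups overlapped by their ends, with differences of 0.45 ± 0.0832 (adjusted p = 0.000145, edgeR) and 0.44 ± 0.0865 (adjusted p = 0.000207). Medians of 96.5 CPM in CC and 93.7 CPM in SC stood beside those of CS and SS. The sum of striatal markers in CPu had similar medians, 5409 CPM in SS and 5434 CPM in S24, and 5088 CPM in CS and 5104 CPM in C24. Over 6 regions the Rgs20 differences were 0.24 ± 0.0595 (adjusted p = 0.000483, limma) and 0.16 ± 0.0648 (adjusted p = 0.0396). The CS call was lost without mouse-014, mouse-055 or mouse-072 of CS or mouse-183, mouse-195, mouse-214 or mouse-223 of C24 (adjusted p of 0.056 to 0.0869). Of the exon bases of Rgs20, 5.94% overlap antisense genes (Atp6v1h and Gm17101), with the same limit as for Rgs16.

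Rgs8 rose in CPu and BLA. In CPu it had 324 to 434 CPM (median 385) in SS, against 304 to 360 CPM (median 329) in S24, and 282 to 401 CPM (median 383) in CS, against 271 to 354 CPM (median 318) in C24. The groups overlapped, and the differences were small, 0.23 ± 0.0626 (adjusted p = 0.00911, edgeR) and 0.20 ± 0.0652 (adjusted p = 0.0199). In BLA it had 107 to 211 CPM (median 184.5) in 7 SS libraries, against 56.7 to 123 CPM (median 79.1) in 7 S24 libraries. The 5 CS libraries there had 221, 197, 192, 152 and 90.3 CPM, against 57.2 to 144.4 CPM (median 91.7) in 6 C24 libraries. Most libraries at 30 days lay above the 24 h range, with differences of 0.96 ± 0.240 (adjusted p = 0.00648) and 0.88 ± 0.269 (adjusted p = 0.0316).

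Rgs4 rose in BLA only among single regions. It had 238 to 383 CPM (median 329) in SS, against 206 to 246 CPM (median 217) in S24, a difference of 0.53 ± 0.122 (adjusted p = 0.00311, edgeR). The 5 CS libraries had 437, 342, 319, 281 and 230 CPM, against 160 to 293 CPM (median 242) in C24, a difference of 0.43 ± 0.138 (adjusted p = 0.0424). The ranges overlapped in both pairs. Leaving out the CS library of mouse-151 brought the Rgs4 difference to 0.29 (adjusted p = 0.228), and leaving out mouse-014 or mouse-072 brought its adjusted p to 0.0613 or 0.0974. For Rgs8 in CS against C24, leaving out mouse-014, mouse-072 or mouse-151 brought the adjusted p to 0.062, 0.0835 or 0.115. In vHipp, Rgs4 had 124 to 161.7 CPM (median 148) in SS, against 142 to 249 CPM (median 188) in S24, a difference of -0.44 that was not called (adjusted p = 0.0913). Over 6 regions, Rgs4 differed by 0.06 in SS against S24 (adjusted p = 0.469, limma) and by 0.22 ± 0.0644 in CS against C24 (adjusted p = 0.00314); Rgs8 differed by 0.20 ± 0.0694 (adjusted p = 0.0211) and 0.26 ± 0.0753 (adjusted p = 0.00327), and the SS call of Rgs8 was lost without mouse-052 of SS (adjusted p = 0.0655) or mouse-204 of S24 (adjusted p = 0.0592).

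The BLA results stood beside a difference in tissue. The sum of 6 striatal projection neuron genes there was 329 to 2244 CPM (median 1489) in SS, against 255 to 1157 CPM (median 430) in S24, and 263 to 2042 CPM (median 1705) in CS, against 283 to 1607 CPM (median 671) in C24. Within groups, over the 38 BLA libraries, it went with Rgs20 (r = 0.859), Rgs8 (r = 0.842), Rgs14 (r = 0.815), Rgs4 (r = 0.799), Rgs2 (r = 0.784) and Rgs10 (r = 0.724), libraries that share 1 dissection. An alternative chosen after seeing the data took the log2 of that sum as a covariate. In SS against S24 it gave 0.50 for Rgs2 (adjusted p = 0.00083, edgeR) and 0.55 for Rgs16 (adjusted p = 0.0384). It gave 0.47 for Rgs8 (adjusted p = 0.0204) and 0.29 for Rgs4 (adjusted p = 0.0273). All were still called, as were 1725 of 17024 genes, but were smaller than the 0.77, 0.66, 0.96 and 0.53 without the covariate. Rgs20, Rgs10 and Rgs14, not called without it, went from 0.34, 0.43 and 0.36 to -0.02, 0.06 and 0.04. Rgs6 went from 0.09 to 0.03, and Rgs7 stayed at 0.13. For CS against C24, where 1221 of 17024 genes were called with the covariate, Rgs8 was still called at 0.48 (adjusted p = 0.0359, edgeR). Rgs4 was not, at 0.23 (adjusted p = 0.124).

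**Figure D5:**
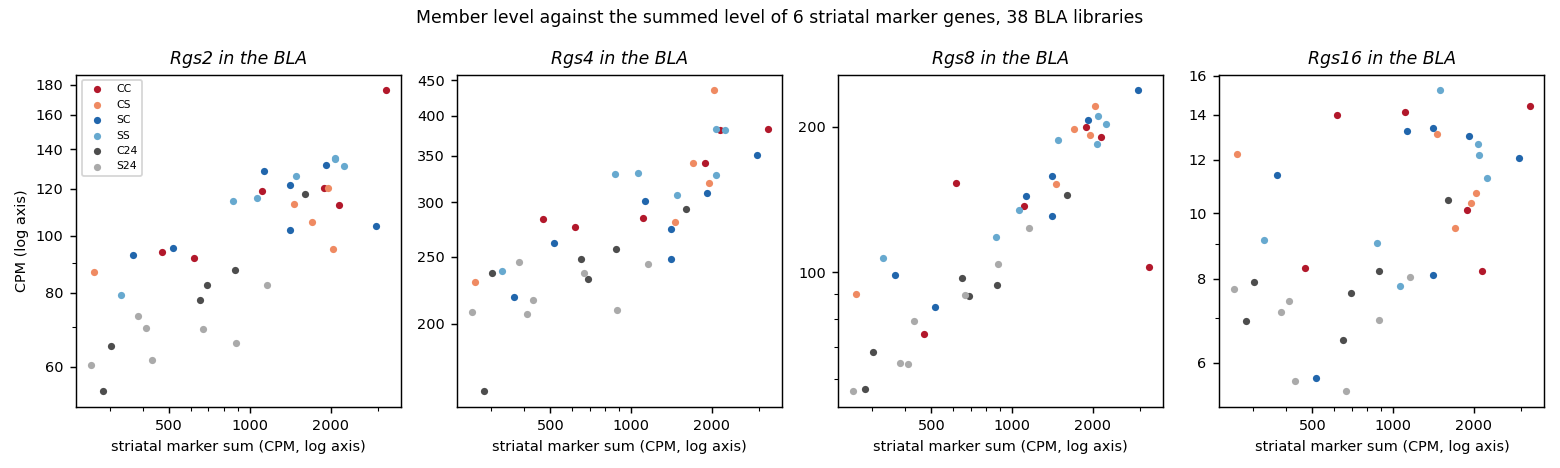
CPM of Rgs2, Rgs4, Rgs8 and Rgs16 in the 38 BLA libraries (vertical) against the summed CPM of 6 striatal projection neuron genes (horizontal), coloured by condition. Rgs4 and Rgs8 climb with the sum within groups (r = 0.799 and 0.842), and most C24 and S24 libraries lie at low sums.

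Rgs10 was higher by 0.21 ± 0.0571 in SS than in S24 over 6 regions (adjusted p = 0.00145, limma) and was called in no single region. Its nearest was vHipp, with 15.6 to 25.8 CPM (median 22.3) in SS, against 14.03 to 21.9 CPM (median 15.6) in S24 (adjusted p = 0.114, edgeR). For CS against C24 the mean difference was 0.10 (adjusted p = 0.188, limma). Whether a member's effect differed among the 6 regions was tested with an F test in the same limma fit, without tissue markers. It called Rgs8 (adjusted p = 0.00048), Rgs4 (adjusted p = 0.00612) and Rgs2 (adjusted p = 0.0211) in SS against S24, where 7.32% of all genes were called. In CS against C24 it called 0 of 9 members, where 0.476% of all genes were called, with the smallest adjusted p for Rgs20 (0.0921).

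Other genes of the pathway were read over the 6 regions beside the same shares of all genes called, 31.6% in SS against S24 and 36.4% in CS against C24; with so few genes, nothing particular to a list is read from its count. Of 12 other Rgs genes, 10 were tested: 0 were called in SS against S24, and in CS against C24 3 were higher and 1 lower. Rgs19 was higher by 0.16 (adjusted p = 0.0011, limma), Rgs17 by 0.18 (adjusted p = 0.0408) and Rgs1, at 0.324 CPM or less on average in every region, by 0.81 (adjusted p = 0.00115), while Rgs11 was lower, at -0.29 (adjusted p = 0.00459). Of 5 binding partners of R7 proteins, 2 were higher in each comparison. These were Gnb5 (0.15 in SS against S24, adjusted p = 0.0135, and 0.18 in CS against C24, adjusted p = 0.00424) and the membrane anchor gene Rgs7bp (0.18, adjusted p = 0.027, and 0.23, adjusted p = 0.00741).

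Of 13 G alpha genes, 4 were higher and 1 lower in SS against S24, and 3 were higher and 1 lower in CS against C24. Gnal, which encodes the striatal Golf subunit, was higher by 0.30 in both (adjusted p = 0.000165 and 0.000564, limma). Of 14 G beta and gamma genes, 3 were higher and 1 lower in SS, and 1 was higher and 2 lower in CS. Of 6 genes of GoLoco proteins and other modulators, 2 were higher and 1 lower in SS, and 1 was higher and 2 lower in CS. Ric8b, the chaperone of Gs and Golf, was higher by 0.23 (adjusted p = 5.27e-08) and 0.31 (adjusted p = 2.98e-12), while Ric8a, the chaperone of the other G alpha classes, was lower, at -0.09 (adjusted p = 0.00653) and -0.13 (adjusted p = 0.000153). The 25 activity-induced genes, transcription factors and others that neurons switch on with firing, were read for scale: 22 were higher in SS against S24 and 23 in CS against C24 and none lower, with medians of 0.64 and 0.67. In the 5 comparisons of cocaine with saline and in the interaction, no gene of the 5 pathway lists was called, and of the activity-induced genes 1 of 25 was called, in CC against SS.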

How the data were processed

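RNA-seq libraries were made from rRNA-depleted RNA with a ScriptSeq kit, per the labels' protocols, although the molecule label reads polyA RNA. The deposited values are raw read counts per Ensembl gene made by the authors; HTSeq, limma and mm10 are named in the submitters' processing notes, and the aligner, strand setting and annotation release are not given in the sources used here. CPM used TMM factors over all 230 libraries; log2 CPM for likeness used a prior count of 1, among genes with a mean of at least 1 CPM. Single regions were fitted with edgeR 4.0.16 (quasi-likelihood, 6 condition groups). The SE beside an edgeR difference was derived as the absolute log2 difference divided by the square root of the test's F. Means over 6 regions, regions against the other 5 and the F test used limma 3.58.1 (voom, 36 groups of region and condition) with the mouse as block. filterByExpr kept genes with a minimum count of 10 and a total of 15. DESeq2 1.42.0 was an alternative. The edgeR and limma steps were tested on simulated data without region or mouse structure, so the mouse block was not tested there. The mouse number comes from the sample titles; same-mouse libraries deviated together weakly (median r = 0.0616 over 486 pairs of libraries, against -0.00931 over 3228 pairs of different mice, both over 18927 genes), and the fitted consensus correlation was 0.0398. Nothing in the labels says that tissue was pooled. Exon lengths and overlaps come from GENCODE M21. Depth limits precision most for Rgs14, whose lowest count in a library was 7. The members and lists were chosen with earlier results of these data known. All 9 members are named, the pathway lists in full, and the 3 genes most like each member, of which some are not reported here.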

Additional observations from a re-analysis of the deposited data

Results flagged for a closer look

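Of 315 groups of 4 to 10 libraries checked (9 members by region and condition), 29 held a library whose gap to the nearest other exceeded Dixon's 95% limit, and chance flags about 1 in 20 groups. Values are CPM, and each is the highest of its group unless said otherwise. No cause was tested.

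For Rgs2 these were 79.3 in BLA SS (mouse-143, the lowest; the striatal marker sum was 0.304 times the BLA median), 177 in BLA CC (mouse-115; striatal sum 2.98 times and blood sum 4.38 times the BLA median), 310 in CPu S24 (mouse-182) and 48.1 in vHipp C24 (mouse-214). For Rgs4 they were 1360 in CPu S24 (mouse-182), 536 in PFC CS (mouse-151) and 142 in VTA SC (mouse-113). For Rgs8 it was 65.4 in PFC S24 (mouse-204, the lowest). For Rgs16 they were 14.2 in CPu CS (mouse-151), 41.2 in vHipp CS (mouse-091; thalamic marker sum 4.05 times the vHipp median), 13.6 in vHipp C24 (mouse-214), 9.03 in vHipp S24 (mouse-204) and 11.7 in PFC S24 (mouse-182).

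For Rgs6 it was 25.8 in NAc C24 (mouse-223; glutamatergic marker sum 52.2 times the NAc median). For Rgs7 they were 48.7 in vHipp CC (mouse-053, the lowest; choroid plexus marker sum 384 times the vHipp median) and 77.9 in PFC S24 (mouse-182, the lowest). For Rgs10 they were 70.9 in BLA CC (mouse-115), 34.1 in BLA C24 (mouse-171), 54.1 in CPu SC (mouse-113), 22.6 in vHipp SC (mouse-125), 59.6 in NAc CC (mouse-145) and 76.5 in NAc CS (mouse-014; blood sum 3.89 times the NAc median). For Rgs14 they were 149 in CPu CC (mouse-085), 158 in CPu S24 (mouse-205), 86.8 in vHipp SS (mouse-052), 75.8 in PFC CS (mouse-014), 15.2 in VTA SC (mouse-113) and 3.51 in VTA S24 (mouse-205; glutamatergic sum 4.90 times the VTA median). For Rgs20 it was 36.5 in PFC CS (mouse-091).

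The effects of 30 days against 24 h in saline mice (SS against S24) differed among the 6 regions by limma's F test for Rgs8 (adjusted p = 0.00048), Rgs4 (adjusted p = 0.00612) and Rgs2 (adjusted p = 0.0211). The differences were highest in BLA for each: 0.96 for Rgs8, 0.53 for Rgs4 and 0.77 for Rgs2. The lowest was in vHipp for each: -0.31, -0.44 and 0.08. With the striatal marker sum as a covariate, the BLA differences of Rgs8, Rgs4 and Rgs2 were 0.47, 0.29 and 0.50. The part of tissue in these regional differences was not tested.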

How the results depend on the processing

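Alternatives were DESeq2, limma voom in single regions, relative log expression scaling, no filter on low counts, each library left out in groups of up to 5, each mouse left out, 1 mean per mouse, and, chosen after seeing the data, leaving out the 39 libraries apart in tissue markers, the 21 with Gm20594, and the striatal covariate in BLA. All 900 alternative counts of calls stayed within 1.5 times those reported. Over 6 regions, members called with a mouse left out numbered 4 to 5 in both SS against S24 and CS against C24; without the mouse block the fit called 5 and 5. In single regions, pairs called with a library left out numbered 9 to 10 in SS against S24 and 8 to 11 in CS against C24. The libraries left out there were of CS, SC or CC, because every SS, S24 and C24 group was larger. These ranges therefore do not show how the single-region calls depend on any SS, S24 or C24 library. In single regions, limma voom and no filter called 7 in CS against C24. For regions, S24 libraries alone and CPM without TMM factors were also used. Of 1066 alternative values of single members, 1031 were unchanged, 33 lost the call and 2 reversed. The 2 were from S24 libraries alone, where BLA against the other 5 regions gave -0.14 for Rgs2 and -0.0777 for Rgs7. Unchanged means the same direction and side of the threshold. For 54 values, region means of CPM without TMM factors, it means a change smaller than the SD. Many of the others left out a library or mouse of a group outside the comparison. The losses with a library or mouse left out, or without the libraries apart in tissue markers, are given beside each result; Rgs20 in CS against C24 over 6 regions also lost its call with no filter (adjusted p = 0.0522, limma) and without the Gm20594 libraries (0.0723). In single regions, CS against C24 lost Rgs16 in CPu (0.0791), Rgs2 in NAc (0.0667) and Rgs4 in BLA (0.0516) by limma voom, and Rgs16 in CPu (0.0576), Rgs4 in BLA (0.0569) and Rgs8 in BLA (0.0728) with no filter. The cause was not tested. Precision is limited by group size, 3 CS libraries in VTA being the fewest, and for Rgs14 in VTA and Rgs16 by depth.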

Other observations

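Rgs9, the striatal R7 member among the other Rgs genes, had 778 ± 86.7 CPM in CPu (SD, n = 42), 430 ± 77.0 in NAc (n = 39), 80.9 ± 56.2 in BLA (n = 38), 44.1 ± 27.1 in PFC (n = 41), 16.1 ± 4.99 in vHipp (n = 39) and 14.8 ± 10.95 in VTA (n = 31). Per kilobase of exon this was 121.8 CPM per kb in CPu, below Rgs4 and above Rgs2. Rgs17, of the same RZ subfamily as Rgs20, had its highest level where Rgs20 had its lowest: 160 ± 17.6 CPM in VTA and 85.8 ± 15.7 CPM in CPu.

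With each region and condition mean taken out, the closest genes of all 9 members over the 230 libraries were other ones. Those of 8 members are given here. Rgs7 went with Mllt11 (r = 0.728) and the synaptic fusion gene Snap25 (0.725), Rgs14 with Itpka (0.771) and the muscarinic receptor gene Chrm1 (0.765), Rgs6 with Gsg1l (0.772), Rgs8 with Zswim5 (0.716), Rgs20 with Prkd1 (0.715), Rgs4 with Ttl (0.694), Rgs2 with Cdc42ep3 (0.648) and Rgs10 with the ribosomal gene Rps12 (0.637). With Spearman's correlation, 10 of the 27 genes nearest to the 9 members were again among the 3 nearest. These libraries share mice and dissections, and the values are descriptions.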
